A study of Mus musculus with 65 samples.

Results

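The 7 genes described here encode transcription factors of the primitive endoderm (Gata4, Gata6, Sox17, Sox7, Foxa2 and Hnf4a) and a receptor of the same lineage (Pdgfra). They were taken by symbol from the RNA count files, which list 24465 genes, and their promoters were looked up in the chromatin peak files. The study asked how the histone variant H3.3, and methylation of its lysine 27, relate to gene expression when mouse embryonic stem cells differentiate. RNA was sequenced by poly(A) selection with a directional kit in 17 libraries, and chromatin immunoprecipitation (ChIP) was done with antibodies to trimethylated lysine 27 of H3.3 (H3.3K27me3), H3.3, H3K27me3 and H3 in 16 libraries. The stem cells at day 0 grew on gelatin with serum and the cytokine LIF. Cells at days 3 and 6 were embryoid bodies, cell aggregates kept in rotation without LIF and with 10 µM all-trans retinoic acid. Wild-type cells sequenced in 2019 gave 2 RNA libraries at each of days 0, 3 and 6. In 2020, wild-type cells gave 1 library at day 0 and 2 at day 6. Cells with H3.3A knocked out, and cells whose H3.3 carried alanine in place of lysine 27 (H3.3K27A), each gave 2 libraries at day 0 and 2 at day 6. Both edited lines were made with CRISPR/Cas9, and how many clones each represents is not given in the sources used here. All ChIP libraries came from wild-type cells, with 2 biological replicates for each antibody at days 0 and 6.

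The primitive endoderm forms next to the epiblast in the blastocyst and gives rise to the parietal and visceral endoderm of the yolk sacs. Fibroblast growth factor signalling through ERK promotes the fate of cells that express Gata6, and Gata4, Sox17 and Sox7 follow. Nanog and Pou5f1 mark the epiblast and embryonic stem cells. Methylation of lysine 27 on H3 is laid down by Polycomb repressive complex 2 and lies over the promoters of many developmental regulators that are silent in stem cells. None of these genes belongs to the primitive endoderm alone: Gata4 and Gata6 are also expressed in heart, Sox7 and Sox17 in endothelium, Foxa2 in definitive endoderm and floor plate, Hnf4a in gut and liver, and Pdgfra in mesenchyme and oligodendrocyte precursors.

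In the RNA libraries, 6.97 to 12.71 M (mega) reads were assigned to genes in 2019 and 14.27 to 22.03 M in 2020. Duplicates of a group differed by more than sampling noise, and the 2 day 6 knockout libraries stood apart from each other, with a chi-square per degree of freedom of 44.2 against 2.2 to 7.7 for the other pairs. H3f3a, the mouse gene for H3.3A, was at 114 to 129 CPM (read counts per M assigned reads) in the wild-type libraries of 2020, 20.9 to 23.1 CPM in the knockout and 20.4 to 24.2 CPM in H3.3K27A, so its transcript was low in both edited lines. CPM here are scaled by trimmed mean of M-values (TMM) within each year. A gene is said to rise or fall where edgeR's quasi-likelihood test gave a Benjamini-Hochberg adjusted p below 0.05 over all genes tested in that year. The labels do not say that RNA duplicates came from separate cultures, so p-values measure the spread between these libraries, which may be technical.

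All 7 genes passed the filter on low counts in both years. In GRCm38 coordinates, Gata4 lies at chr14:63198914-63271712 on the minus strand and Sox7 at chr14:63943706-63950732 on the plus strand. Sox17 lies at chr1:4490928-4497426 on the minus strand. Foxa2 (chr2:148042877-148046969, minus strand) and Pdgfra (chr5:75151322-75198206, plus strand) each have 3 annotated start sites, and Hnf4a (chr2:163506811-163572907, plus strand) has 2. Hnf4aos, which overlaps Hnf4a on the opposite strand, had 1 count over the 17 libraries, and Mir7025 inside Pdgfra had 7.

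RefSeq promoter sequences on GRCm38.p6 were matched for 3 of the 7 genes, Foxa2, Hnf4a and Pdgfra, with 6 start sites. The 4 shown set 2 promoters with H3.3K27me3 (Foxa2 and Pdgfra) beside both of Hnf4a, which had none, and annotated exon bases are left out. Capitals mark matches, on either strand, to motifs that were searched.
Foxa2 start site 1, chr2:148046970-148047219, minus strand: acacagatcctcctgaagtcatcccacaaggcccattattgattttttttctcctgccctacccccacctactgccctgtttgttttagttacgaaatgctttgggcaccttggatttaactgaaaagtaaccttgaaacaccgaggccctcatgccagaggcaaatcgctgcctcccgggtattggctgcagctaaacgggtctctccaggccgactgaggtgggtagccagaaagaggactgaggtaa
Pdgfra start site 1, chr5:75152001-75152250, plus strand: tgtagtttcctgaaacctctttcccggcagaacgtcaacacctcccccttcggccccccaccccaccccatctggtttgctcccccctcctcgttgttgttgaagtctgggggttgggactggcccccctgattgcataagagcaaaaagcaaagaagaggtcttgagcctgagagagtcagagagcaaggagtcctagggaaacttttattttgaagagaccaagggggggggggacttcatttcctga
Hnf4a start site 1, chr2:163506607-163506807, plus strand: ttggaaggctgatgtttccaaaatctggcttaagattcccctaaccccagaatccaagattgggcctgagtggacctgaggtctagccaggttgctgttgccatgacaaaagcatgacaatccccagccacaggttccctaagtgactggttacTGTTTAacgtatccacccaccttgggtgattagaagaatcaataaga
Hnf4a start site 2, chr2:163546943-163547154, plus strand: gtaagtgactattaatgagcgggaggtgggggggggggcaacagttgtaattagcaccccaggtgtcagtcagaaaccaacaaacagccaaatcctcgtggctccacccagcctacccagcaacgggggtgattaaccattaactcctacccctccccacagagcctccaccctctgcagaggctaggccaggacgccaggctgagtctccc

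In the 250 bases before each of 32817 RefSeq start sites, both strands were searched for GATAA (found in 22.6% of them), TGTTTA (12%), AACAAT (9.42%), AGGTCA (14%) and the retinoic acid response element made of 2 AGGTCA sites in the same direction, 5 bases apart (0.00914%). The first 4 are core letters bound by GATA, forkhead, SOX and nuclear receptor proteins. Start site 1 of Hnf4a held TGTTTA at -96, counted in bases from the start site, and a GATAA at -51 that runs into the bases left out. The first 2 Foxa2 start sites, Hnf4a start site 2 and Pdgfra start site 1 held none of the motifs, and the third Foxa2 start site held GATAA at -182. CpG pairs numbered 6, 20 and 13 before the 3 Foxa2 start sites, 3 and 4 before those of Hnf4a and 4 before that of Pdgfra. Of all promoters, 17.9% held at least 20 and 70.9% at least 3. A match describes letters in these windows and is not a measurement of binding.

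In wild-type cells of 2019, 6 of the 7 genes rose between days 0 and 3, a comparison in which 71.4% of the 13593 genes tested changed in either direction. Gata4 and Gata6, zinc-finger factors of the primitive endoderm, went from 4.12 CPM or less at day 0 to 74.3 CPM or more at day 3. Gata4 was at 3.70 and 4.12 CPM at day 0, 75.2 and 81.1 CPM at day 3, and 115 and 111 CPM at day 6. Gata6 was at 1.13 and 0.375 CPM at day 0, 74.7 and 74.3 CPM at day 3, and 104 and 112 CPM at day 6. For both genes, every day 3 library was above every day 0 library and every day 6 library was above both day 3 libraries. Gata6 lies at chr18:11052510-11085636 on the plus strand. The log2 change from day 0 to day 3 was 4.30 ± 0.20 (SE) for Gata4 and 6.81 ± 0.44 for Gata6, and from day 3 to day 6 it was 0.54 ± 0.10 for each. These are bulk libraries, in which more cells of a type and more RNA per cell cannot be told apart.

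The SOX factors moved apart after day 3. Sox17, which acts in endoderm formation, was at 0.482 and 0.094 CPM at day 0 (4 reads in all), 42.0 and 40.7 CPM at day 3, and 91.0 and 92.6 CPM at day 6. Sox7, its close relative, was at 0.804 and 0.656 CPM at day 0, 67.9 and 75.1 CPM at day 3, and 12.8 and 12.6 CPM at day 6. Sox17 thus stepped up at each day, and Sox7 was highest at day 3 and in between at day 6, with no overlap between days for either gene. From day 3 to day 6, Sox17 rose by 1.15 ± 0.11 on the log2 scale and Sox7 fell by 2.49 ± 0.13 (adjusted p = 1.498e-09, edgeR quasi-likelihood test, Benjamini-Hochberg). Sox7 was the one member of the 7 to fall in that step, the other 6 rose, and 57.3% of all genes tested changed. The Foxa2 rise, 0.42 on the log2 scale, was lost with DESeq2, in fits without day 3 replicate 2 or day 6 replicate 1 and with all 17 libraries in 1 fit, where the Gata4 rise was lost too.

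Foxa2 and Hnf4a, a forkhead factor and a nuclear receptor of endoderm and liver, differed in timing. Foxa2 was at 0.161 and 0.187 CPM at day 0, 23.6 and 21.8 CPM at day 3, and 30.9 and 29.6 CPM at day 6. Hnf4a was at 3.54 and 2.34 CPM at day 0, 2.67 and 3.75 CPM at day 3, and 19.6 and 16.9 CPM at day 6. The day 0 and day 3 libraries of Hnf4a overlapped, and both of its day 6 libraries were above them. With 3 reads in the day 0 libraries together, the ratio of day 3 to day 0 for Foxa2 was 128, with an exact 95% interval from counting alone of 43.5 to 621. The log2 change of Hnf4a was 0.20 ± 0.30 from day 0 to day 3, which missed the threshold (adjusted p = 0.567, edgeR quasi-likelihood test, Benjamini-Hochberg), and 2.5 ± 0.22 from day 3 to day 6 (adjusted p = 6.545e-07).

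Pdgfra encodes a platelet-derived growth factor receptor that marks primitive endoderm cells in the blastocyst. Pdgfra was at 0.964 and 0.750 CPM at day 0, 57.3 and 55.2 CPM at day 3, and 241 and 239 CPM at day 6. It had the highest level of the 7 at day 6 as CPM, which grows with gene length, and its change of 2.09 ± 0.09 from day 3 to day 6 was, with that of Hnf4a, above 2 on the log2 scale. From day 0 to day 6, all 7 genes rose, in a comparison where 78.0% of genes changed and 41.4% rose. Their log2 changes ran from 2.70 for Hnf4a to 8.53 for Sox17 with a median of 7.33, where the median over all genes tested was 0.09. The largest adjusted p among the 7 was 3.041e-07 (edgeR quasi-likelihood test, Benjamini-Hochberg).

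**Figure D1:**
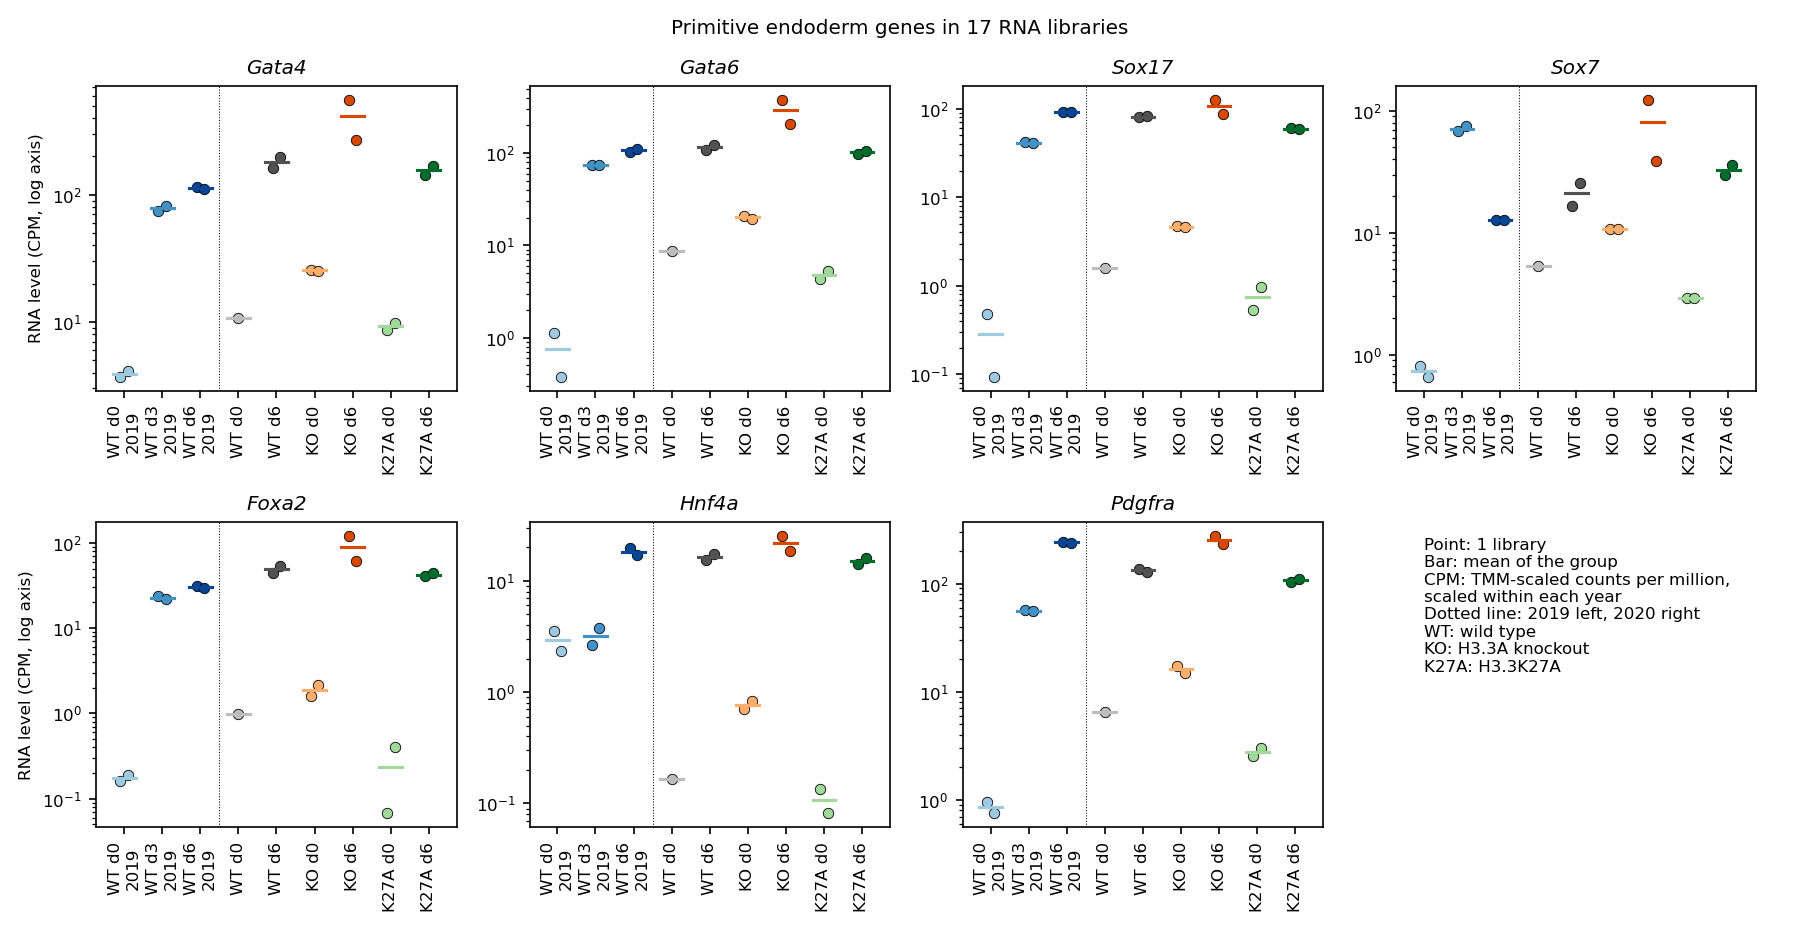
CPM on a log axis in each of the 17 RNA libraries, 1 panel per gene, with libraries grouped by year, line and day. Every gene is higher in the day 6 libraries than in the day 0 libraries of the same line and year, and Sox7 in 2019 is highest at day 3, at 67.9 and 75.1 CPM.

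In 2020, wild-type cells were compared with the 2 edited lines, and every member rose from day 0 to day 6 in each of the 3 series. All genes tested changed in 70.8% of cases in wild type, 77.2% in the knockout and 76.7% in H3.3K27A. Wild-type Gata4 went from 10.7 CPM in the single day 0 library to 162 and 198 CPM, and Gata6 from 8.76 CPM to 108 and 124 CPM. Sox17 went from 1.59 CPM to 79.6 and 81.8 CPM, Sox7 from 5.31 to 16.6 and 25.7 CPM, and Foxa2 from 0.986 to 44.8 and 53.3 CPM. Sox7 was the member with the smallest change in wild type, 1.99 ± 0.63 (SE) on the log2 scale (adjusted p = 0.0191, edgeR quasi-likelihood test, Benjamini-Hochberg). That call was lost without wild-type day 6 replicate 2 (adjusted p = 0.064, same test), and the single day 0 library takes its spread from the other groups. Hnf4a went from 0.164 CPM, which is 3 reads, to 15.4 and 17.2 CPM, a ratio of 98.9 with an exact 95% counting interval of 33.7 to 481. Pdgfra went from 6.46 CPM to 137 and 129 CPM.

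In the knockout, Gata4 was at 25.7 and 25.2 CPM at day 0 and at 557 and 267 CPM at day 6. Gata6 was at 20.9 and 19.6 CPM, then at 379 and 207 CPM, and Sox17 at 4.70 and 4.64 CPM, then at 126 and 87.4 CPM. The knockout's day 0 duplicates lay close together and its day 6 duplicates did not, with replicate 1 the higher for all 7 genes. Sox7 was at 10.6 and 10.7 CPM at day 0 and at 123 and 38.5 CPM at day 6, the largest ratio between day 6 duplicates of the 7. Foxa2 went from 1.61 and 2.16 CPM to 119 and 61.0 CPM, Hnf4a from 0.709 and 0.829 CPM to 25.0 and 18.5 CPM, and Pdgfra from 17.5 and 15.0 CPM to 273 and 234 CPM. The log2 changes from day 0 to day 6 in the knockout ran from 2.92 for Sox7 to 5.56 for Foxa2. Leaving out 1 day 6 knockout library gave 1.83 (without replicate 1) to 3.53 (without replicate 2) for Sox7 and 4.98 to 5.97 for Foxa2.

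In H3.3K27A, Gata4 was at 8.66 and 9.84 CPM at day 0 and at 143 and 169 CPM at day 6. Gata6 was at 4.30 and 5.28 CPM, then at 98.3 and 107 CPM, and Sox17 at 0.537 and 0.976 CPM, then at 60.0 and 58.5 CPM. These duplicates lay close together at day 6 in all 7 genes. Sox7 went from 2.89 and 2.93 CPM to 29.7 and 35.8 CPM, and Pdgfra from 2.55 and 3.01 CPM to 104 and 111 CPM. Foxa2 went from 0.067 and 0.407 CPM, 6 reads in all, to 40.8 and 44.3 CPM. Hnf4a went from 0.134 and 0.081 CPM, 3 reads in all, to 14 and 16.1 CPM, a ratio of 136 with an exact 95% counting interval of 46.2 to 659. The log2 changes in H3.3K27A ran from 3.49 for Sox7 to 7.55 for Foxa2, the last being 6.69 without day 0 replicate 1 and 9.18 without day 0 replicate 2.

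**Figure D2:**
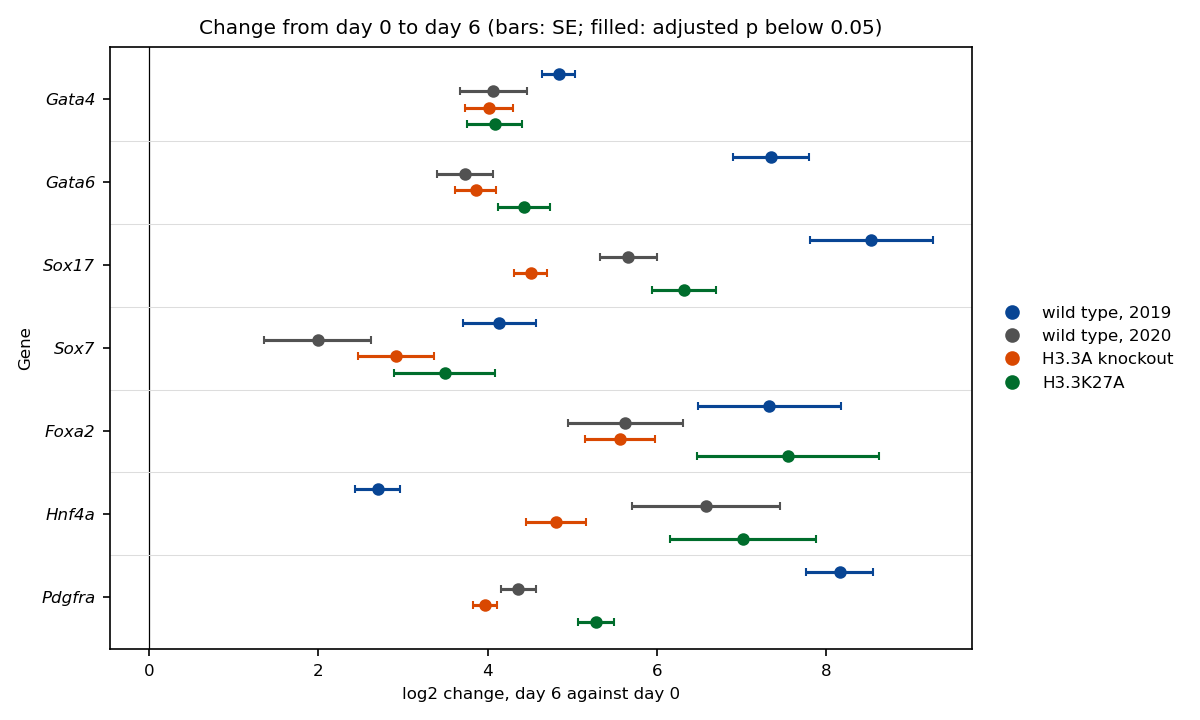
Log2 change from day 0 to day 6, with its SE, for the 7 genes in wild type of 2019, wild type of 2020, the H3.3A knockout and H3.3K27A. All 28 changes are above 0 and passed the test, and those of Hnf4a in 2019 and Sox7 in wild type of 2020, at 2.70 and 1.99, are the smallest of their series.

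At day 0, all 7 genes were higher in both knockout libraries than in the wild-type library and lower in both H3.3K27A libraries than in it, an order that 6.35% of all genes tested showed. For Hnf4a the lower level in H3.3K27A rests on 3 reads in its libraries together against 3 in wild type. That ratio was 0.67, with an exact 95% counting interval of 0.09 to 5.01, so its place in the order is not resolved. Only Pdgfra passed the test against wild type, and it did so in both lines. It was 1.32 ± 0.21 (SE) higher on the log2 scale in the knockout (adjusted p = 0.0198, edgeR quasi-likelihood test, Benjamini-Hochberg), where 0.122% of all genes changed. In H3.3K27A it fell by 1.22 ± 0.26 (adjusted p = 0.018, same test), where 1.73% of all genes changed. Both comparisons rest on the same single wild-type library, whose spread the fit takes from the other groups. In the knockout the other 6 genes had log2 differences of 0.94 for Foxa2 to 2.19 for Hnf4a, the last a ratio of 4.71 with an exact 95% counting interval of 1.44 to 24.3. Before adjustment 5 of the 7 and 5.0% of all genes had a p under 0.05 in the knockout, and DESeq2 called 3 of the 7 and 0.285% of all genes. In H3.3K27A the other 6 had log2 differences from -2.13 for Foxa2 to -0.22 for Gata4, none past the threshold. The Pdgfra call was lost in the knockout in 8 of the fits that left out a library, including each fit without 1 of its own day 0 libraries, and in H3.3K27A in the 2 fits without 1 of its own day 0 libraries. Without either day 6 knockout library, 4 genes were called in the knockout (Gata4, Gata6, Sox17 and Pdgfra), where 0.834% and 0.838% of all genes were called, and 2 in H3.3K27A (Gata6 and Pdgfra), where 8.67% were in either fit.

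Set against each other at day 0, with no wild-type library in the contrast, 3 of the 7 genes passed the test, each lower in H3.3K27A than in the knockout. Gata6 differed by -2.09 ± 0.32, Sox17 by -2.65 ± 0.40 and Pdgfra by -2.55 ± 0.22 on the log2 scale, all called as lower, with adjusted p of 0.0161, 0.0081 and 8.241e-05 (edgeR quasi-likelihood test, Benjamini-Hochberg). Of all genes tested, 1.27% changed in this comparison. The other 4 had differences of -1.46 for Gata4, -1.87 for Sox7, -2.74 for Hnf4a and -3.07 for Foxa2. DESeq2 called 5 of the 7 (2.83% of all genes), the edgeR test without the filter on low counts called 7 (1.75%), and leaving out 1 library of either line at day 0 left Pdgfra as the 1 called gene, where 0.129% to 0.169% of all genes were called. Without either day 6 knockout library, all 7 were called, where 7.83% and 7.84% of all genes were.

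At day 6, 4 of the 7 genes rose in the knockout against wild type: Gata4, Gata6, Sox7 and Pdgfra. Gata4 was 1.19 ± 0.26 higher on the log2 scale (adjusted p = 0.0234), Gata6 1.33 ± 0.22 (adjusted p = 0.00726), Sox7 1.93 ± 0.42 (adjusted p = 0.0232) and Pdgfra 0.93 ± 0.13 (adjusted p = 0.00133, all by edgeR's quasi-likelihood test with Benjamini-Hochberg adjustment). Over all genes, 11.4% of those tested changed in this comparison and 6.98% of those tested rose, and the median change was 0.03 against 0.93 over the 7. The differences of Foxa2, 0.88 ± 0.26, Sox17, 0.40 ± 0.15, and Hnf4a, 0.42 ± 0.21, missed the threshold, with adjusted p of 0.0625, 0.117 and 0.137 by the same test. Both knockout libraries were above both wild-type libraries for all 7 genes, as they were for 28.2% of all genes tested.

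Because the day 6 knockout duplicates stood apart, the comparison was also made with each of them alone, the lone library being assumed to vary like the other groups. Without replicate 1 the same 4 genes were called, as were 14.43% of all genes, at 0.54 for Gata4, 0.81 for Gata6, 0.84 for Sox7 and 0.79 for Pdgfra on the log2 scale. Without replicate 2, all 7 were called, as were 40.89% of all genes, with Gata4 at 1.63, Gata6 at 1.71, Sox7 at 2.55 and Pdgfra at 1.04. The sizes for Gata4, Gata6 and Sox7 thus depended on the library kept, and that of Pdgfra less so. Without either wild-type day 6 library 1 gene was called, Pdgfra, where 1.43% and 2.2% of all genes were called, and without knockout day 0 replicate 1 there were 2, Gata6 and Pdgfra, where 7.1% were.

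In H3.3K27A against wild type at day 6, none of the 7 genes was called by edgeR's quasi-likelihood test or by DESeq2, and 2.04% of all genes changed. Before adjustment, 2 of the 7 (Sox17 and Pdgfra) and 15.6% of all genes had a p under 0.05. The log2 differences were -0.44 ± 0.15 for Sox17, -0.31 ± 0.13 for Pdgfra, between -0.21 and -0.12 for Gata4, Gata6, Foxa2 and Hnf4a, and 0.63 ± 0.43 for Sox7. For Gata6, Sox17, Foxa2 and Pdgfra both H3.3K27A libraries were below both wild-type libraries, as for 26.5% of all genes tested. In fits without either day 6 knockout library, which contribute to the shared spread, 3 genes were called, Sox17 and Pdgfra lower and Sox7 higher, where 14.29% and 14.33% of all genes were called. This comparison and that of the knockout share their wild-type libraries.

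Set against the knockout at day 6, 5 of the 7 genes fell in H3.3K27A, where 18.7% of all genes changed. Gata6 differed by -1.52 ± 0.22, Gata4 by -1.40 ± 0.27, Pdgfra by -1.24 ± 0.13, Foxa2 by -1.08 ± 0.26 and Sox17 by -0.84 ± 0.15 on the log2 scale, with adjusted p from 0.0001224 for Pdgfra to 0.02145 for Foxa2 (edgeR quasi-likelihood test, Benjamini-Hochberg). Sox7 at -1.30 ± 0.42 and Hnf4a at -0.53 ± 0.22 missed the threshold. Without knockout day 6 replicate 1, 5 genes were called, as were 26.45% of all genes, and Gata4 was at -0.76. Without knockout day 6 replicate 2, all 7 were called, as were 39.47% of all genes. Without H3.3K27A day 6 replicate 1, 2 genes were called (Gata6 and Pdgfra) and 4.88% of all genes, and without its replicate 2, 3 (these and Gata4) and 7.37%.

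**Figure D3:**
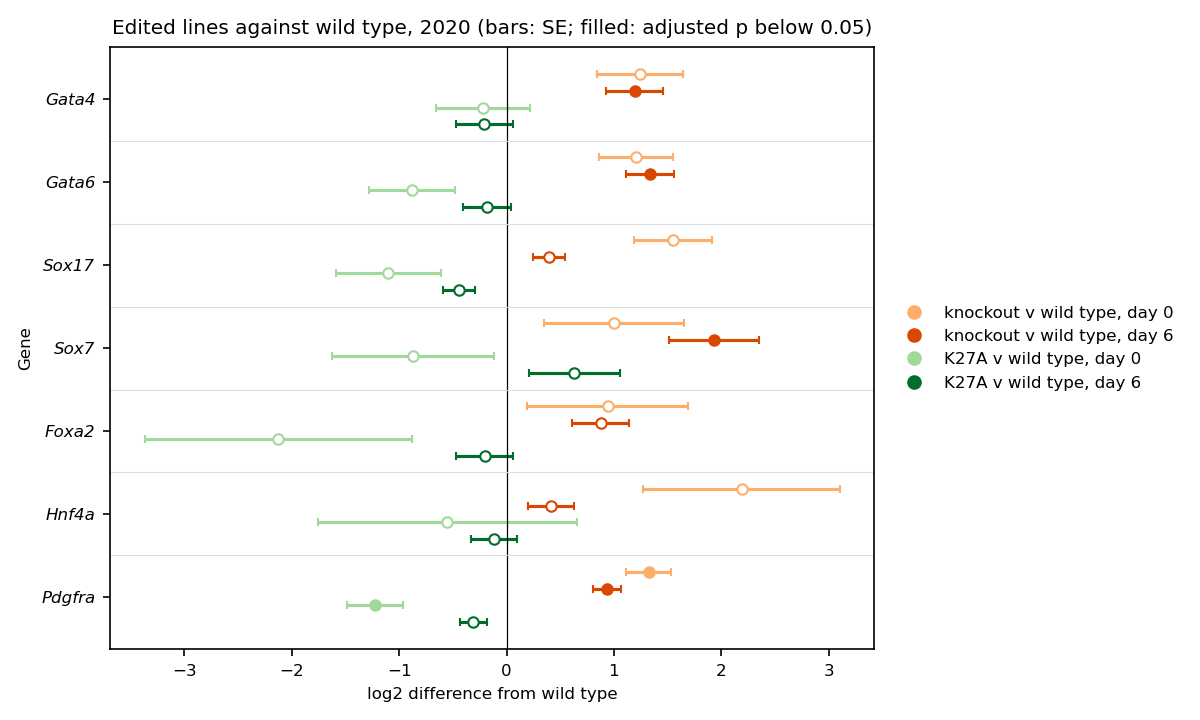
Log2 difference of each edited line from wild type at day 0 and day 6, with its SE, for the 7 genes, filled where the adjusted p was below 0.05. In the knockout all 14 differences are above 0, and in H3.3K27A all but that of Sox7 at day 6, 0.63, are below 0.

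The change from day 0 to day 6 was then compared between lines, which asks whether the log2 ratio of day 6 to day 0 was unequal. Day 0 levels differed between the lines, and a starting level and a response cannot be told apart in this ratio. Between the knockout and wild type, none of the 7 differed by edgeR's quasi-likelihood test or by DESeq2, 2 and 12.1% of all genes had an unadjusted p under 0.05 (Sox17 at -1.15 and Hnf4a at -1.77 on the log2 scale), and 0.0813% of all genes were called. Between H3.3K27A and wild type, none was called by either tool, 1 and 11.2% of all genes had an unadjusted p under 0.05 (Pdgfra, at 0.92), and 0.766% of all genes were called. Between H3.3K27A and the knockout, Sox17 changed by 1.81 ± 0.43 more in H3.3K27A and Pdgfra by 1.31 ± 0.25 more, with adjusted p of 0.0307 and 0.00608 (edgeR quasi-likelihood test, Benjamini-Hochberg), where 5.39% of all genes were called. Without knockout day 6 replicate 1, Sox17 was called between the knockout and wild type (2.98% of all genes were), and without replicate 2, Sox17 and Sox7 (19.11%). Without either of these libraries, Sox7 and Pdgfra were called between H3.3K27A and wild type, where 6.21% and 6.33% of all genes were. In the comparison of H3.3K27A with the knockout, both called genes started lower in H3.3K27A. The Sox17 call was lost in 8 of the 11 fits that left out 1 library, with an adjusted p of up to 0.1774, and that of Pdgfra in 1, the fit without H3.3K27A day 0 replicate 1. Without knockout day 6 replicate 1, all 7 were called, as were 13.92% of all genes.

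The wild-type series of the 2 years were not alike in 4 of these genes. In a fit of all 17 libraries, the change from day 0 to day 6 in 2020 minus that in 2019 was 3.86 ± 0.91 on the log2 scale for Hnf4a. It was -3.63 ± 0.80 for Gata6, -2.90 ± 0.87 for Sox17 and -3.82 ± 0.45 for Pdgfra, so these 3 changed less in 2020. The adjusted p of these 4 were 0.000373, 0.000747, 0.007 and 6.733e-07 (edgeR quasi-likelihood test, Benjamini-Hochberg), and 29.5% of all genes were called. Year, depth and day of sequencing cannot be told apart here, and the 2020 series had 1 wild-type day 0 library. Mean Gata6 was 108 and 116 CPM at day 6 of 2019 and 2020, and 0.750 and 8.76 CPM at day 0. In the same order, Sox17 was at 91.8, 80.7, 0.288 and 1.59 CPM and Pdgfra at 240, 133, 0.857 and 6.46 CPM. Hnf4a was at 18.3, 16.3, 2.94 and 0.164 CPM. For all 4 genes the years lay further apart, as a ratio, at day 0 than at day 6. Levels were scaled within each year and were not tested across years.

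Levels of different genes are compared per kilobase of exon, as CPM per kb. In the 2019 day 0 libraries Gata4 led with a mean of 1.15 CPM per kb, followed by Hnf4a at 0.631, and the other 5 were between 0.0703 and 0.235. At day 3, Gata6 at 23.3, Gata4 at 22.9 and Sox7 at 21.9 CPM per kb lay close together, and Hnf4a was last at 0.689. At day 6 of 2019, Gata6 at 33.8 and Gata4 at 33.3 CPM per kb led, followed by Pdgfra at 27.9, Sox17 at 22.4 and Foxa2 at 12.8. Hnf4a at 3.92, with libraries at 3.63 and 4.22, and Sox7 at 3.89, with libraries at 3.86 and 3.91, were last and did not differ beyond their spread. At day 6 of 2020, Gata4 was first and Gata6 second in every line, at 52.8 and 36.4 CPM per kb in wild type, 121 and 91.8 in the knockout, and 45.8 and 32.1 in H3.3K27A. Hnf4a was last in all 3, at 3.50, 4.68 and 3.23 CPM per kb. Between them, wild-type Foxa2, with libraries at 18.9 and 22.5 CPM per kb, lay on both sides of the Sox17 mean of 19.7.

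Over the 17 RNA libraries and 15343 genes, the genes whose log2 CPM ran most like that of each member were ranked by Pearson's r, as a description of libraries that share year, day and depth. For Gata4 these were Col4a1 (r = 0.995), Hs3st1 (0.993) and Col4a2 (0.992), of which Col4a1 and Col4a2 encode basement membrane collagen. For Gata6 they were Dab2 (0.984), Col4a1 (0.982) and Cubn (0.982). Dab2 and Cubn take part in uptake at the visceral endoderm surface. Sox17 had Pdgfra (0.989), Scarf2 (0.987) and Egflam (0.986), and Pdgfra had Sox17 (0.989), Bend5 (0.980) and Gata6 (0.979). Foxa2 had Flrt3, Hexa (0.989) and P3h2 (0.987), and Hnf4a had among its 3 Golgb1 (0.975) and Pdlim4 (0.970). Sox7 had the lowest leading value of the 7, 0.955 for Ssr3, followed by Foxq1 (0.953) and Snx9 (0.952). Among the members themselves, r ran from 0.546 for Hnf4a with Sox7 to 0.989 for Pdgfra with Sox17.

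At the promoters, taken as 1000 bases on each side of a start site, 6 of the 7 genes had an H3.3K27me3 peak in both wild-type replicates at day 0 and none had one in both at day 6. The shares over 23362 genes were 11.6% at day 0 and 2.77% at day 6. Hnf4a was the gene without one: the nearest H3.3K27me3 peak at day 0 was 126.62 kb from its start sites in replicate 1 and 113.84 kb in replicate 2. Widths and enrichments are the authors', each peak's own, with enrichment the highest value within the peak over the genome. Over Foxa2 the peaks were 32.4 and 34.9 kb wide with enrichments of 3.25 and 2.84, and they took in all 3 start sites, including the Foxa2 sequence shown above. Over Sox17 they were 27 and 21.8 kb wide (3.02 and 3.47), over Gata4 22.4 and 19.9 kb (3.02 and 3.16), and over Gata6 18.5 and 19.6 kb (3.14 and 2.84). Over Pdgfra they were 14.1 and 17.3 kb wide (2.56 and 2.84) and held all 3 start sites, and over Sox7 5.7 and 22.1 kb wide (2.79 and 2.84). The domains were wider than the gene itself at Foxa2 and Sox17 and, in replicate 2, at Sox7, and narrower than the gene at Gata4, Gata6 and Pdgfra. At day 6, replicate 1 had an 11.6 kb peak with an enrichment of 2.82 at Sox17, and no other member had an H3.3K27me3 peak in either replicate.

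The H3.3K27me3 libraries of day 6 held 33.62 M and 37.76 M tags against 81.24 M and 55.21 M at day 0, and 26215 and 14483 filtered peaks against 14796 and 12690. The part of this depth in the missing day 6 peaks was not tested. Of all promoters marked at day 0, 85.3% were not marked in both replicates at day 6, so the 6 members shared this with most marked promoters.

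Peaks of the H3K27me3 antibody stayed at the same 6 promoters. Both replicates had a peak there at day 0 and at day 6, and the shares over all genes were 18.5% and 11.5%. At day 0 the enrichments were 6.14 and 4.92 for Gata4, 5.82 and 4.92 for Gata6, 5.82 and 5.99 for Sox17, 3.93 and 4.15 for Sox7, 5.19 and 6.15 for Foxa2, and 4.56 and 5.99 for Pdgfra. At day 6 they were 3.89 and 3.39 for Gata4, 2.88 and 2.62 for Gata6, 3.46 and 3.39 for Sox17, 2.30 and 2.92 for Sox7, 3.46 and 2.77 for Foxa2, and 2.88 and 2.77 for Pdgfra. The day 6 domains at Foxa2 were 52.2 and 27.7 kb wide and those at Gata4 41.2 and 40.6 kb, and the narrowest in replicate 2 was at Sox7, 5.5 kb. Promoters with H3K27me3 at both days and H3.3K27me3 at day 0 but not day 6 made up 5.41% of all genes, and all 6 marked members were among them. Hnf4a had neither mark at either day.

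H3.3 itself gave a peak in both replicates at 1 member promoter on each day, Gata4 at day 0 (enrichments of 2.79 and 2.97) and Sox7 at day 6 (2.13 and 2.46). Over all genes these shares were 38.3% and 26.0%. Taken singly, day 0 replicate 1 had an H3.3 peak at Gata4 alone (44.9% of all genes had one). Day 0 replicate 2 had them at Gata4, Gata6, Sox7, Foxa2 and Hnf4a (48.7%). Day 6 replicate 1 had them at every member but Hnf4a (42.7%), and day 6 replicate 2 at Sox7 alone (31.0%). The Gata6 peaks, in day 0 replicate 2 and day 6 replicate 1, both had an enrichment of 2.35. Hnf4a, in day 0 replicate 2, lay in a 66 kb H3.3 peak with an enrichment of 3.28. No member promoter had an H3 peak in both replicates, with shares over all genes of 5.56% at day 0 and 2.19% at day 6.

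**Figure D4:**
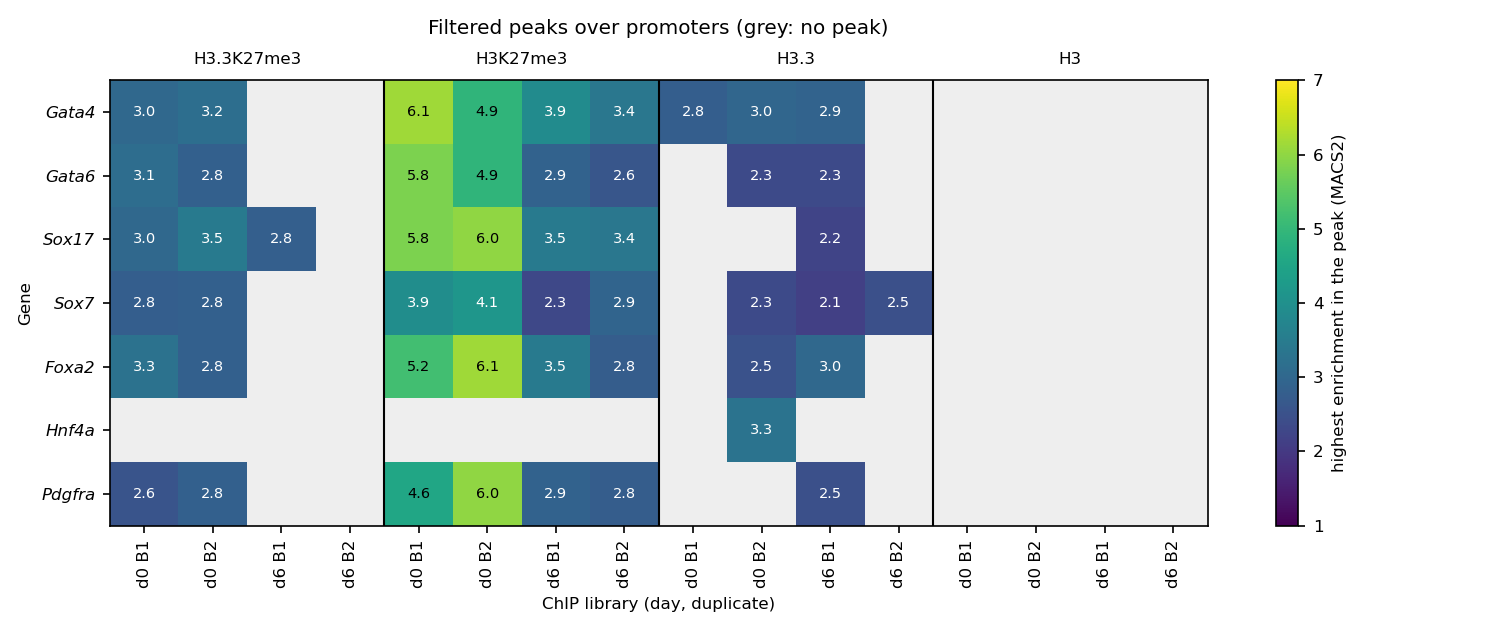
Highest fold enrichment of filtered peaks over each gene's promoter in the 16 ChIP libraries, with antibody, day and replicate in columns and grey where no peak overlaps. H3.3K27me3 fills 6 of 7 rows at day 0 and 1 cell at day 6, and H3K27me3 fills 6 rows at both days.

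The authors' deposited tables compare H3K27me3 and H3.3 signal between days over regions, with a log2 difference and a false discovery rate (FDR) for each. In the H3K27me3 table, where 33% of 10491 regions passed an FDR of 0.05 and 30.5% were higher at day 0, the regions over all 6 marked members were lower at day 6. For Gata6, the authors' deposited table gives signals of 1674 and 1834 at day 0 and 878 and 762 at day 6, a log2 difference of -1.10. For Pdgfra, it gives 1606 and 1730 against 917 and 818, a difference of -0.94. The differences in the authors' deposited table were smaller for Sox17 (-0.56), Foxa2 (-0.54), Gata4 (-0.52) and Sox7 (-0.37), beside a median of -0.13 over all regions. Gata6 and Pdgfra were thus the members whose region lost the largest part of its H3K27me3 signal, while signal remained in all 6.

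In the authors' deposited table for H3.3, 50.4% of 14812 regions passed an FDR of 0.05, 36.4% being higher at day 0 and 13.9% higher at day 6. Gata6 was higher at day 6, with signals of 1286 and 1332 at day 0 and 2161 and 1946 at day 6, a log2 difference of 0.65 in the authors' deposited table. Foxa2 at 0.51, Pdgfra at 0.42 and Gata4 at 0.27 were also higher at day 6 in the authors' deposited table. Sox7 at 0.02 did not pass the FDR there, and for Sox17 the authors' deposited table holds a distal region only, at 0.55. Hnf4a went the other way in the authors' deposited table, with signals of 2290 and 2296 at day 0 and 1587 and 1538 at day 6, a difference of -0.55 over a 66.1 kb region at its upstream start site. Of the 6 members that carried H3.3K27me3 at day 0, Gata6, Foxa2, Pdgfra and Gata4 thus had more H3.3 signal at day 6. Sox7 did not pass and Sox17 had no region at its promoter. Hnf4a, which carried no H3.3K27me3, had less H3.3 signal. These regions were wide, up to 119.5 kb at Gata4, and a link between the day 0 mark and H3.3 was not tested.

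**Figure D5:**
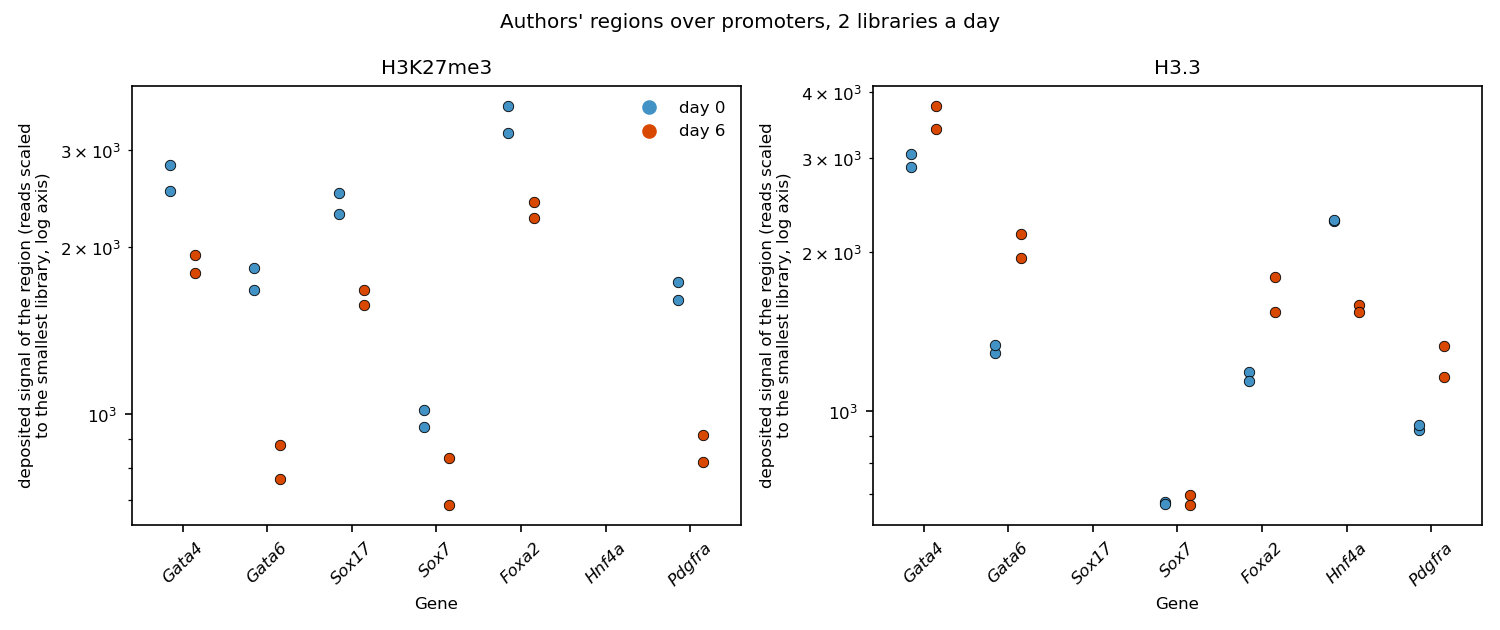
The authors' region signal at member promoters for H3K27me3 and H3.3, in 2 libraries at day 0 and 2 at day 6. H3K27me3 is lower at day 6 in all 6 regions, and H3.3 is higher at day 6 for Gata6, Foxa2, Pdgfra and Gata4 and lower for Hnf4a.

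Genes that act with the members were followed as lists. From day 0 to day 6 of 2019, 41.4% of all genes tested rose and 36.6% fell, the shares to set beside the 2019 counts below. Of 9 closest relatives, 7 were tested, and 4 rose and 1 fell in that comparison. Foxa1 rose by 5.18 and Pdgfrb by 3.54 on the log2 scale. Gata5 had 3 reads at day 0 and a day 6 to day 0 ratio of 94.1 (exact 95% counting interval 32.0 to 458), and Gata2, also with 3 reads, a ratio of 15.2 (4.97 to 75.5). Pdgfa and Pdgfb, ligands of the PDGF receptors, both fell, with log2 changes of -1.86 and -2.73, and neither was called in a line against wild type. The receptor thus rose in libraries where these 2 ligands fell, and Pdgfc and Pdgfd had no counts in any library. Of 13 tested genes of FGF and ERK signalling, 3 rose and 9 fell from day 0 to day 6 of 2019, among them Fgf4, the ligand, with a log2 change of -7.97. Spry4, Etv4 and Spry2, transcripts that ERK signalling induces, changed by -6.72, -4.92 and -3.33. In the knockout at day 6, Etv4 rose by 1.17 ± 0.17 against wild type. It was the 1 gene of 13 called, where 11.4% of all genes were. Of 11 tested endoderm transcription factors besides the members, 3 rose and 7 fell in 2019. Cited1 rose by 7.44, Lhx1 had no read at day 0 and was at least 715-fold higher at day 6 (floor of 3 counts over the group), and Otx2 changed by -4.8.

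Products of the parietal and visceral endoderm moved with the members. Of 24 tested, 20 rose from day 0 to day 6 in 2019 and 3 fell, where 41.4% of all genes rose and 36.6% fell. Their median log2 change was 4.48 against 0.09 over all genes. Rbp4, the retinol carrier, rose by 7.26. Ttr, with 1 read at day 0, had a ratio of 279 (exact 95% counting interval 49.8 to 11040), and Afp, with none, was at least 33.6-fold higher. In the knockout at day 6, 17 of 24 rose against wild type and none fell, where 6.98% of all genes rose and 4.42% fell. The median was 1.10 against 0.03 over all genes. Lama1 at 2.38 ± 0.21, Lamb1 at 1.97 ± 0.21 and Lamc1 at 1.91 ± 0.16, the chains of laminin-111, and Sparc at 1.95 ± 0.24 were the largest. The summed level of the list was 55845 and 35987 CPM in the knockout at day 6, 12816 and 15690 in wild type, and 10432 and 12740 in H3.3K27A. In H3.3K27A against wild type at day 6, none of the 24 was called, where 2.04% of all genes were. Against the knockout 15 fell and none rose, with a median of -0.80, where 9.64% of all genes fell and 9.03% rose.

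Markers of other cells that express a member were measured in the same libraries, and their part in the members' levels was not tested. From day 0 to day 6 of 2019, 8 of 9 tested mesenchyme markers rose, where 41.4% of all genes rose and 36.6% fell. Their summed level went from 14.3 to 20.4 CPM at day 0 to between 1127 and 1331 CPM. Of 10 endothelium markers, 4 rose and 4 fell in that comparison, and their summed level was 744.0 and 743.7 CPM at day 3, the day at which Sox7 was highest, against 60.4 to 129.7 CPM at days 0 and 6. Of 8 tested cardiac markers, 4 rose and 1 fell, with a summed level of 36.1 to 37.0 CPM at day 6 and Mef2c at 0. Of 5 floor plate markers, 4 rose and 1 fell. Among streak and definitive endoderm markers, T had 2 and Mixl1 4 reads at day 6 of 2019, and Cxcr4 was at 0. These are named for being at 0 or near it and do not stand for the whole list, on which Foxa1 rose as given above. All 10 stem cell markers fell in both years, beside 36.6% of all genes in 2019 and 34.8% in wild type of 2020.

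In the knockout against wild type at day 6, where 6.98% of all genes rose and 4.42% fell, 5 of 10 stem cell markers rose, among them Tdgf1 by 1.99 and Klf4 by 1.23, with summed levels of 458 to 728 CPM against 278 to 322 CPM. Of 10 endothelium markers, 4 rose and none fell, with Sox18 at 2.05, and the summed level was 46.9 to 47.5 CPM against 37.1 to 39.2 CPM. Of 8 cardiac markers 1 rose (Myl7, by 1.69), with 45.3 and 45.5 CPM in all against 27.9 to 32.2 CPM. Of 9 mesenchyme markers 1 fell (Pdgfrb, at -0.55), with 190 to 380 CPM against 308 to 341 CPM. Of 7 floor plate markers 1 fell (Ntn1, at -0.86), and none of 5 oligodendrocyte precursor markers passed the test. Gut and liver markers were at 20.1 to 21.8 CPM in all against 18.3 to 18.4 CPM. None of 5 tested definitive endoderm markers was called. At 51.2 to 76.5 CPM, those markers summed to less in the knockout than in wild type, at 80.5 to 93.6 CPM. The part of each of these in the members' difference between the lines was not tested.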

How the data were processed

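RNA was measured in 17 libraries and chromatin in 16, each of the latter sequenced in 3 runs that the authors joined. The members and gene lists were chosen with earlier results of these data known. The deposited RNA files hold raw read counts per gene, made by the authors with STAR 2.5.2a and HTSeq on mm10, per the submitters' processing notes; the strand setting is not given in the sources used here. Per the file headers, peaks were called by the authors with MACS2 in each library without a control at p 0.01, with a minimum length of 1000 and a maximum gap of 5000 bases. The deposited peak files give pileup signal, fold enrichment (a ratio) and −log10 p-values and q-values. The rule that made the filtered peaks is not given in the sources used here, and 100% of them equal a MACS2 call. The submitters' processing notes name DiffBind, DESeq2 and deepTools. The authors' deposited tables give region signal as log2 means, log2 differences and p-values with false discovery rates.

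Counts were tested with edgeR 4.0.16 (limma 3.58.1, R 4.3.3): TMM scaling, filterByExpr, quasi-likelihood F-test and Benjamini-Hochberg adjustment at 0.05, over 13593 genes in 2019, 14760 in 2020 and 15343 in all 17 libraries. Groups had 2 libraries, except wild type at day 0 of 2020 with 1. The script was tested on simulated counts. Alternatives were DESeq2 1.42.0, no filter on low counts, a replicate block, leaving out each library, all libraries in 1 fit, and for peaks 2500 bases, an enrichment of at least 5, all MACS2 calls and single replicates. The genes named are all 7 members, up to 4 genes per list with the largest called change, the 3 genes most correlated with each member by log2 CPM (prior count 2), and single markers given at 0 or near it; some genes that this rule names are not reported here. Intervals cover counting error only, since PCR reads carry no molecular identifiers. Reads with no gene made up 25.7 to 43.3% of the 2019 libraries and 11.3 to 16.8% of those of 2020, and were left out.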

Additional observations from a re-analysis of the deposited data

Results flagged for a closer look

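The change from day 0 to day 6 in H3.3K27A exceeded that in the H3.3A knockout by 1.81 on the log2 scale for Sox17 and by 1.31 for Pdgfra, each singled out because the test of the difference between the lines passed the threshold. The Sox17 call was lost in 8 of the 11 fits that left out 1 library (adjusted p up to 0.1774, edgeR quasi-likelihood test, Benjamini-Hochberg) and the Pdgfra call in 1. In the same way, the wild-type change of 2020 differed from that of 2019 by -3.63 for Gata6, -2.90 for Sox17, -3.82 for Pdgfra and 3.86 for Hnf4a. No group had the 4 libraries that a check for an outlying library needs.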

How the results depend on the processing

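The count of called members in the knockout against wild type at day 0 was 1, where 0.122% of all genes were called. It became 3 with DESeq2 (0.285% of all genes), 2 without the filter on low counts (0.172%) and 0 with the replicate block (0.0339%). In H3.3K27A against the knockout at day 0 it was 3 (1.27% of all genes). There it became 5 with DESeq2 (2.83%), 7 without the filter (1.75%) and 5 with all 17 libraries in 1 fit (2.385%). For the day 6 change in H3.3K27A minus that in wild type it was 0 (0.766%) and became 1 with all libraries in 1 fit (1.69%). Leaving out 1 library gave 0 to 4 called members for the knockout against wild type at day 0, 1 to 7 at day 6, 0 to 2 for H3.3K27A against wild type at day 0, 0 to 3 at day 6, 1 to 7 for H3.3K27A against the knockout at day 0 and 2 to 7 at day 6. For differences between changes it gave 0 to 2 (knockout minus wild type), 0 to 2 (H3.3K27A minus wild type), 0 to 7 (H3.3K27A minus knockout) and 3 to 6 (2020 minus 2019). The count for day 6 against day 3 of 2019 was 6 to 7 (Foxa2 lost), 6 with DESeq2 and 5 with all 17 libraries in 1 fit (Gata4 and Foxa2 lost), and that for wild type of 2020 was 6 to 7 (Sox7 lost). The share of all genes called shifted between these fits as well, as the shares given with the results above show. The cause of these shifts was not tested. Where the share for a fit is not given, its count is not a result about the members.

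Differences between replicates 1 and 2 were correlated between groups, with r from -0.025 to 0.079 in 3 pairs of 2019 and from -0.534 to 0.254 in 10 pairs of 2020. The values furthest from 0 were among day 6 groups of 2020. They were -0.534 for the knockout with wild type, -0.321 for the knockout with H3.3K27A and 0.254 for H3.3K27A with wild type. These values do not settle whether the numbers pair the libraries, and the main fits used no pairing. The replicate block left 3 of 4 calls in the knockout against wild type at day 6, losing Sox7, and a crossed pairing, chosen after seeing the data, gave 5. The share of all genes called in these fits is not given here, so the counts are not a result about the members.

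Signs turned for values that were not called, when 1 library was left out. Hnf4a from day 0 to day 3 ran from -0.134 to 0.452, with -0.065 without day 3 replicate 2. For the knockout minus wild type, Gata4 ran from -0.696 to 0.386 (0.101 without wild-type day 6 replicate 2), Gata6 from -0.394 to 0.501, Sox7 from -0.155 to 1.543, and Foxa2 from -0.65 to 0.34 (0.171 and 0.067 in between). For H3.3K27A minus wild type, Gata4 ran from -0.127 to 0.163 (-0.08 and -0.113 in between). For H3.3K27A minus the knockout, Gata4 ran from -0.372 to 0.706 (-0.029 and -0.063 in between), and Sox7 from -0.04 to 1.655.

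At an enrichment of at least 5, no member promoter had H3.3K27me3 at day 0 (0 against 6), where 0.103% of all promoters did. That cut left 2 members with H3K27me3 at day 0 (1.93% of all promoters) and 0 at day 6 (0.0899%). H3.3 gave 0 on both days (0.535% and 0.103% of all promoters). Within 2500 bases H3.3 at day 0 gave 2 (39.9%), and all MACS2 calls gave 5 for H3.3 at day 6 (42.0%). Single replicates gave 0 to 1 for H3.3K27me3 at day 6, beside 5.3% and 10.3% of all promoters. For H3.3 they gave 1 to 5 at day 0 (44.9% and 48.7%) and 1 to 6 at day 6 (31.0% and 42.7%). At the depth of the day 0 libraries of 2019, members with 3 to 4 reads have folds known only within wide counting intervals.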
